A study of Mus musculus with 147 samples.

Results

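A set of 7 genes was followed that are known for their part in undifferentiated spermatogonia, namely Zbtb16, Sall4, Foxo1, Lin28a, Lin28b, Taf4b and Hhex, out of the 31053 genes in the table of UMI (unique molecular identifier) counts. They were taken by name, and their levels were read in wild-type germ cells from E8.5 to the adult testis. The authors named Hhex a marker of spermatogonia from these same cells, so its levels here are no independent support for that role. The values are CPM, the UMIs of a gene per 1000000 UMIs of a pool, where a pool is the germ cells of 1 time-point and 1 biological replicate with their counts summed. The single cells were sequenced with STRT-seq, which counts the ends of polyadenylated transcripts. CPM is compared here between pools for a gene, not between genes.

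All mice came from C57BL/6 mothers and fathers that carried the BVSC reporters, Blimp1-mVenus and Stella-ECFP, and only cells that the authors' table of cells gives as wild type were used. The study sampled male germ cells, with embryos sexed by PCR for Sry at E10.5 and E11.5. Some E10.5 cells carry no label of sex, so the pools of E8.5-E10.5 may hold female cells, unlike those of later stages. Before birth a germ cell was a cell labelled BVSC in the sort, from whole embryos at E8.5 to E10.5 and from gonads after that. From E14.5 the authors collected cells positive for Stella-ECFP alone, so the gate changes together with the step to E14.5-E16.5. The part of the gate in that step was not tested. After birth the authors picked testicular cells at random among those that looked like germ cells, in place of the BVSC sort. From PND0 on a germ cell was a cell with at least 150 CPM of Ddx4, the germ cell RNA helicase. The way cells were collected thus changes within E17.5-PND0 and together with the step to PND1-PND3. The part of that change in the results was not tested. This left 8498 germ cells in 54 pools of 26 time-points, with 27 to 541 cells and 12409411 to 190897809 UMIs a pool (median 35364339). For tests, the time-points were joined into 8 stages of 6 to 10 pools, E8.5-E10.5, E11.5-E13.5, E14.5-E16.5, E17.5-PND0, PND1-PND3, PND4-PND6, PND7-PND14 and PND30-Adult.

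Undifferentiated spermatogonia are the mitotic germ cells at the edge of the seminiferous tubule that hold the stem cells of spermatogenesis. They descend from primordial germ cells, which proliferate in the fetal gonad, stop dividing before birth and resume after it. Stem cells carry the GDNF receptor GFRA1, while retinoic acid induces Stra8 in cells that go on to differentiate. Zbtb16 encodes PLZF, a zinc finger repressor that keeps spermatogonia from being lost with age, and SALL4 is a zinc finger factor that recruits the NuRD complex and binds PLZF. FOXO1 is a forkhead factor that PI3K and AKT signalling holds in the cytoplasm. LIN28A and LIN28B are RNA-binding proteins that block the maturation of let-7 miRNAs, TAF4B is a form of the TFIID subunit TAF4 that is enriched in gonads, and HHEX is a homeobox repressor that works with TLE corepressors.

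Some pools stood apart, and their values are given beside the results they touch. Across genes, replicates of a time-point correlated at r of 0.79 (Adult) to 0.98 (median 0.95, 24 time-points). In the pool of Adult replicate 1, the spermatid markers summed to 207 CPM, the lowest value of the PND30-Adult stage (median 1074), while the Sertoli cell markers summed to 685 CPM, the highest (median 40.8), and the Leydig markers to 775 CPM (median 9.75). At E8.5, Dppa3, the gene behind the Stella reporter, stood at 20.98 CPM in replicate 1 and at 218 in replicate 3 against 665 in replicate 2, although all 3 were sorted on that reporter. The germ cell markers, Dppa3 among them, summed to 38.1 CPM in replicate 1 and 252.5 in replicate 3 against 676.8 in replicate 2. For replicates 1 and 3 of E8.5 the name germ cell thus rests on the sort label alone. The Sertoli list was also highest in its stage in E17.5 replicate 1 (1379 CPM, median 350.3) and in PND12 replicate 1 (1353 CPM, median 384), and the meiosis list was highest of PND7-PND14 in PND14 replicate 2 (1345 CPM, median 685). Ddx4 was at 298 CPM or more in every pool from E12.5 on and under 67 CPM in all 8 pools before E11.5, so that gene does not mark the earliest cells.

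**Figure D1:**
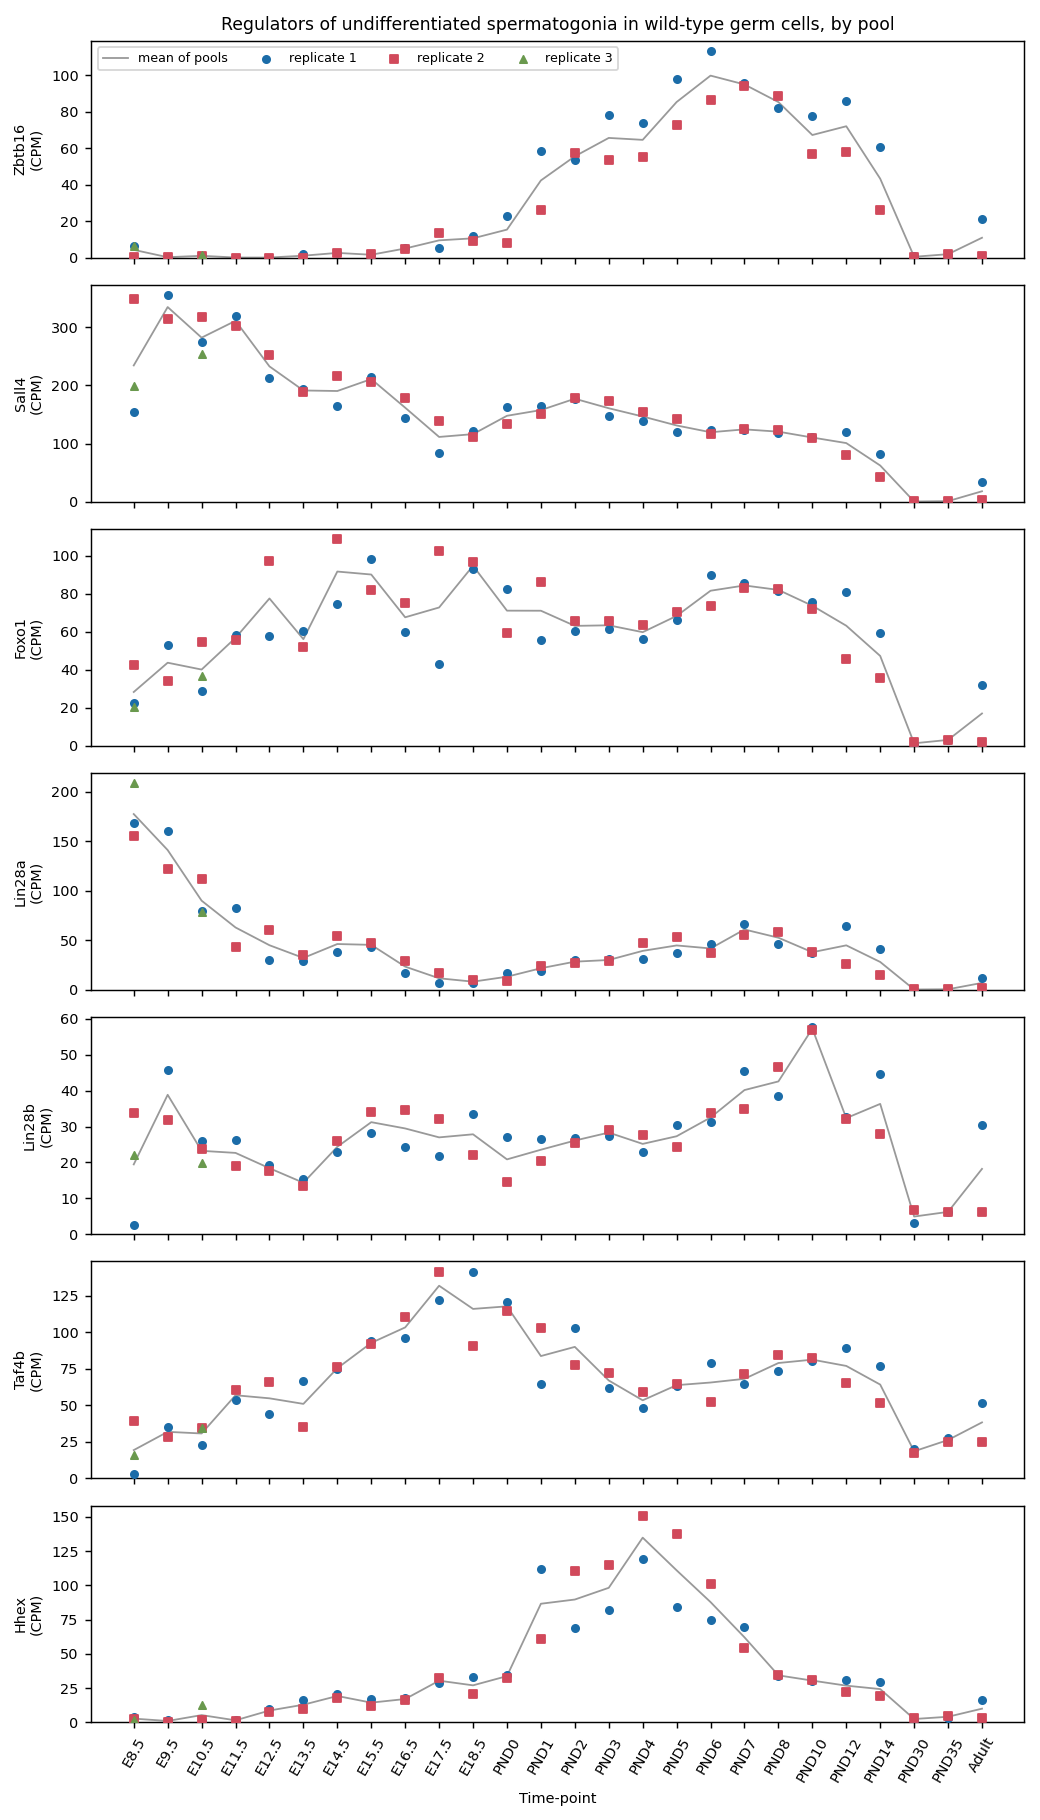
Level of each gene in CPM (vertical axis, linear, from 0) in every pool by time-point (horizontal axis, not to scale in days). Each point is 1 pool, with shape and colour for the replicate, and the grey line joins the means. Zbtb16 and Hhex are low before birth and high from PND1, Sall4 and Lin28a start high at E8.5 to E9.5, and Adult replicate 1 lies above the other pools from PND30 on in all 7 panels.

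The 7 genes did not share 1 course. Zbtb16 had its highest mean over a time-point at PND6 (99.9 ± 19.1 CPM, SD, n = 2), Hhex at PND4 (134.8 ± 22.4) and Lin28b at PND10 (57.3 ± 0.59), all in testes that hold spermatogonia. Sall4 was highest at E9.5 (335 ± 28.9), Lin28a at E8.5 (177 ± 27.4, n = 3), Foxo1 at E18.5 (94.9 ± 2.61, n = 2) and Taf4b at E17.5 (131.9 ± 13.7), all before birth. For 5 of them the pools of the highest time-point overlapped those of the next in order. Lin28b at PND10 (56.9 and 57.7 CPM) did not overlap PND8 (38.6 and 46.6), and Taf4b at E17.5 (122.2 and 141.6) did not overlap PND0 (114.7 and 120.8). Taf4b at E17.5 did overlap E18.5 (90.9 and 141.1), so its highest time-point is not set apart. For Lin28a, the highest E8.5 pools were replicates 1 and 3 (168 and 208 CPM), in which Dppa3 was low. Replicate 2 of E8.5 stood at 155.8 CPM of Lin28a, above the E9.5 mean of 141.1 but below E9.5 replicate 1 at 160.4. That pool alone does not set E8.5 apart from E9.5. In a sum over cells, fewer cells with a transcript and less of it per cell cannot be told apart.

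Each stage was tested against the one before with edgeR's quasi-likelihood test over 24367 genes, all 54 pools in 1 fit. At E11.5-E13.5, 2 of 7 genes had risen (Taf4b and Hhex) and 1 had fallen (Lin28a), where 17.9% of all genes tested passed (7.66% higher and 10.2% lower). Zbtb16 rose at E14.5-E16.5, the only 1 of 7, where 46.1% of all genes passed (31.5% higher and 14.6% lower). Lin28a fell at E17.5-PND0 (1 of 7, with 22.7% of all genes passing, 7.27% higher and 15.4% lower). The step to PND1-PND3 held the most rises, 3 of 7 (Zbtb16, Lin28a and Hhex) and none lower, with 16.9% of all genes passing, 12.4% higher and 4.59% lower. None of the 7 passed at PND4-PND6 (7.06% of all genes, 2.45% higher and 4.61% lower), where the median of the 7 was a log2 fold change of 0.36 and that of all genes -0.23. Hhex fell at PND7-PND14 (1 of 7, with 12.2% of all genes passing, 8.43% higher and 3.74% lower), and all 7 fell at PND30-Adult, where 67.7% of all genes passed, 38.6% higher and 29.1% lower. In that last step the median log2 fold change was -3.09 for the 7 genes and 0.23 for all genes. A gene that missed the threshold is not shown to be level. With the replicate 1 pools or the replicate 2 pools left out, the remaining pools no longer called any of the 3 rises at PND1-PND3 or the fall of Hhex at PND7-PND14, while 6 of the 7 falls at PND30-Adult passed either way, Taf4b being the exception (-0.73, adjusted p = 0.181, without replicate 2). Between 3 ways of scaling the libraries the median of all genes ranged from -0.38 to -0.12 at PND1-PND3, from 0.25 to 0.61 at E17.5-PND0, from 0.56 to 0.93 at E14.5-E16.5, from -0.51 to -0.23 at PND4-PND6 and from -0.25 to 0.54 at PND30-Adult, against which the members' values are to be read.

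**Figure D2:**
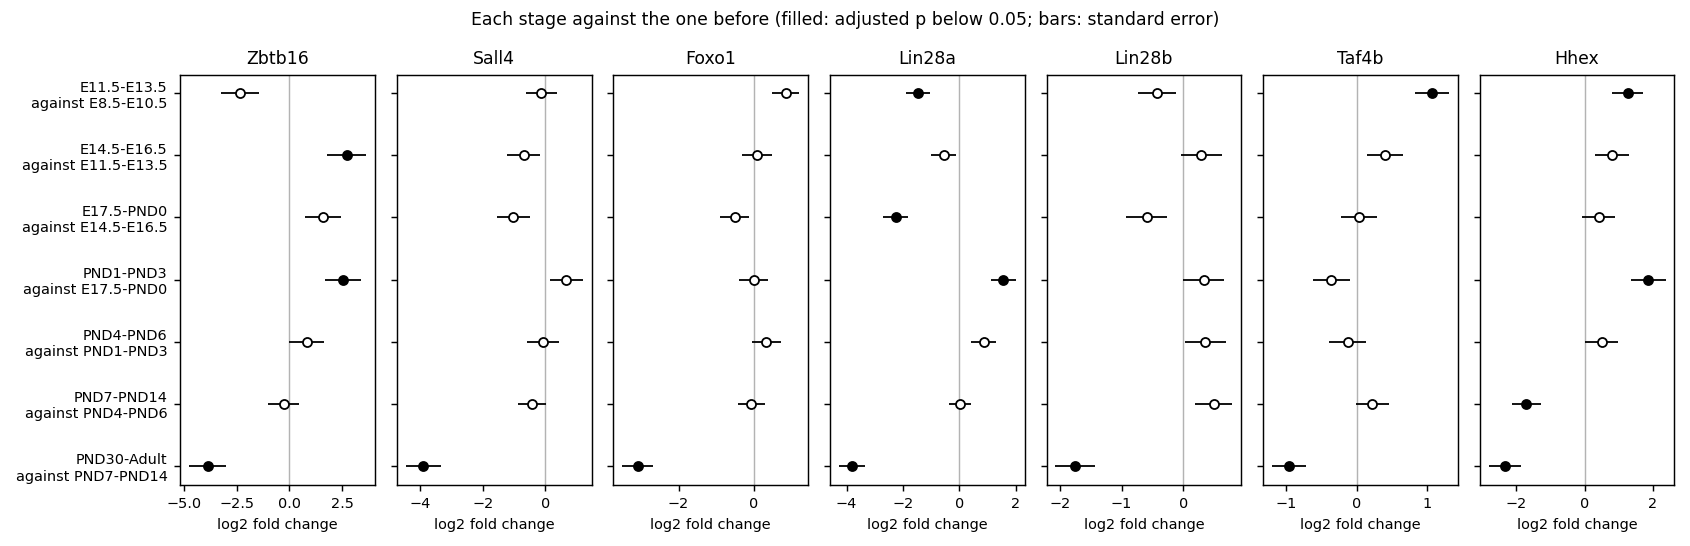
Log2 fold change (horizontal axis) of each gene for each stage against the one before (rows), from edgeR's fit of 54 pools. Bars are standard errors, and filled points passed an adjusted p of 0.05. The filled points lie right of 0 for Zbtb16, Lin28a and Hhex at PND1-PND3, and left of 0 for all 7 genes at PND30-Adult.

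Zbtb16 (ENSMUSG00000066687.5, chr9:48654297-48836222 on mm10, minus strand) was low in fetal germ cells and became abundant in the days after birth. At E8.5-E10.5 its 8 pools ran from 0.057 to 6.39 CPM with a median of 0.77, and the 2 highest were the E8.5 replicates 1 and 3 in which Dppa3 was low. No UMI was counted in 5 of the 6 pools of E11.5-E13.5, which at their depth allows up to 0.117 to 0.145 CPM, and the sixth, E13.5 replicate 1, was at 2.03. The 6 pools of E14.5-E16.5 ran from 1.12 to 5.16 CPM (median 2.54), those of E17.5-PND0 from 5.21 to 22.7 (median 10.6) and those of PND1-PND3 from 26.1 to 78.05 (median 55.6). From E17.5-PND0 on, each of these stages lay above the one before without overlap, at E17.5-PND0 by little (5.21 against 5.16 CPM). The stage E14.5-E16.5 overlapped the 1 pool of E13.5 that had UMIs. The step to E17.5-PND0 did not pass (1.59 ± 0.85 in log2 fold change, SE, adjusted p = 0.166). The rise to E14.5-E16.5 was 2.72 ± 0.92 in log2 fold change (SE, adjusted p = 0.0145) and that to PND1-PND3 was 2.54 ± 0.87 (adjusted p = 0.0348). The size of the first is poorly fixed, since 1 pool holds all UMIs of E11.5-E13.5, and with 1 replicate number left out it ranged from 1.75, where it did not pass (adjusted p = 0.298, without replicate 2), to 10.2 (without replicate 1, where the remaining pools of E11.5-E13.5 are at 0, so that this is no bound). The step from E8.5-E10.5 to E11.5-E13.5 missed the threshold (-2.36 ± 0.89, adjusted p = 0.0557), was -0.64 ± 0.85 without E8.5 replicates 1 and 3 (adjusted p = 0.739) and passed without Adult replicate 1 (-2.35, adjusted p = 0.0316). The rise to PND1-PND3 no longer passed without E17.5 replicate 1, whose Sertoli markers were high (2.39, adjusted p = 0.0729), nor with other scalings of the libraries (adjusted p = 0.0678 with RLE factors and 0.0905 with library size alone). Levels then stayed between 55.1 and 113.4 CPM at PND4-PND6 (median 80.3) and between 26.1 and 95.7 at PND7-PND14 (median 80.01).

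Hhex (ENSMUSG00000024986.12, chr19:37434810-37440731, plus strand) had its highest levels from PND1 to PND6 and was lower both before and after. Its pools ran from 0.28 to 12.495 CPM at E8.5-E10.5 (median 1.87), from 0.97 to 16.4 at E11.5-E13.5 (median 8.59), from 11.9 to 20.97 at E14.5-E16.5 (median 17.3) and from 20.99 to 34.9 at E17.5-PND0 (median 32.5). After birth they stood at 61.1 to 114.6 CPM at PND1-PND3 (median 96.2) and at 74.9 to 151 at PND4-PND6 (median 109.8). All 12 of these postnatal pools were above every earlier one. The step to PND1-PND3 was 1.88 ± 0.50 in log2 fold change (adjusted p = 0.00621). The smaller step at E11.5-E13.5 (1.26 ± 0.46, adjusted p = 0.0460) no longer passed without E8.5 replicates 1 and 3 (1.17, adjusted p = 0.125). At PND7-PND14 the 10 pools ran from 19.4 to 69.5 CPM (median 31.01), all below the lowest pool of PND4-PND6, a log2 fold change of -1.71 ± 0.42 (adjusted p = 0.00598). Zbtb16 did not pass in that step (72.6 ± 21.96 CPM after 83.3 ± 20.6).

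Sall4 (ENSMUSG00000027547.17, chr2:168748332-168767943, minus strand) was abundant from the first germ cells sampled until PND14. Its pools ran from 155 to 355 CPM at E8.5-E10.5 (median 294), from 189 to 320 at E11.5-E13.5 (median 233), from 144.5 to 216.5 at E14.5-E16.5 (median 193) and from 83.6 to 163 at E17.5-PND0 (median 127.2). The lowest pool before birth was E17.5 replicate 1. After birth the ranges were 148 to 178 CPM at PND1-PND3, 115.8 to 154 at PND4-PND6 and 42.4 to 125.7 at PND7-PND14. No step before PND30 passed the test for Sall4, although the pools of E17.5-PND0 all lay below those of E11.5-E13.5. The step to E17.5-PND0 (-1.02 ± 0.53, adjusted p = 0.156) passed without Adult replicate 1 (-1.02, adjusted p = 0.0136) and did not pass without E17.5 replicate 1 (-0.94, adjusted p = 0.234).

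Foxo1 (ENSMUSG00000044167.6, chr3:52268336-52353221, plus strand) was present at every stage up to PND14. The pools ran from 20.2 to 54.5 CPM at E8.5-E10.5 (median 35.6) and from 51.8 to 97.2 at E11.5-E13.5 (median 58.1), which overlap only narrowly. From E14.5 to PND6 they lay between 42.9 CPM, in E17.5 replicate 1, and 108.8, in E14.5 replicate 2. At PND7-PND14 they ran from 35.5 to 85.9 (median 78.3). None of the first 6 steps passed the test for Foxo1, and the step to E11.5-E13.5 (0.85 ± 0.37, adjusted p = 0.101) passed without Adult replicate 1 (adjusted p = 0.00813) but not without E8.5 replicates 1 and 3 (0.63 ± 0.41, adjusted p = 0.355).

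The LIN28 proteins act on the let-7 family, so the sequences they read are given here from the RefSeq table for GRCm38.p6, 5′ to 3′. In the mature miRNAs the capitals mark the seed, bases 2 to 8, which 10 of the 11 family members share as GAGGUAG, while let-7j has GAGGUAU. The following members show how little the rest varies.
let-7a-5p: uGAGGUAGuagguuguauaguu
let-7g-5p: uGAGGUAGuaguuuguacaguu
miR-98-5p: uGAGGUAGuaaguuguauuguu
let-7j: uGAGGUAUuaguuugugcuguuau

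The LIN28 zinc knuckles bind the motif GGAG in the hairpin precursor, and in the following hairpins the capitals mark that motif where it lies between the mature arms or at the start of the second. The first and second hold it and the last does not.
Mirlet7g, chr9:106178840-106178927, plus strand: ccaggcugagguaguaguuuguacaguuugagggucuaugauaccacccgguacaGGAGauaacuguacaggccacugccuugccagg
Mirlet7a-2, chr9:41536716-41536811, plus strand: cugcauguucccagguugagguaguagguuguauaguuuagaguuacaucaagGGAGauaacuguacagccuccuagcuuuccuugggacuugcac
Mirlet7b, chr15:85707319-85707403, plus strand: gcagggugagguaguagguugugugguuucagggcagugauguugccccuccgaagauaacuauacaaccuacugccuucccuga

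Read on the transcript strand, GGAG was found anywhere in the hairpin in 11 of 14 let-7 family members of the table (78.6%), and in 443 of all 997 mouse hairpins listed (44.4%). The match is a description of letters, and let-7 itself was not among the values analysed here.

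Lin28a (ENSMUSG00000050966.9, chr4:134003330-134018841, minus strand) was the only 1 of the 7 genes that fell in fetal life and rose again after birth with both turns passing the test. Its pools ran from 78.7 to 208 CPM at E8.5-E10.5 (median 138.8), from 29.3 to 83.2 at E11.5-E13.5 (median 39.1) and from 17.6 to 54.4 at E14.5-E16.5 (median 40.8). At E17.5-PND0 all 6 lay between 6.70 and 17.47 CPM (median 9.66), below every earlier pool. At PND1-PND3 they stood at 19.6 to 31.3 CPM (median 28.01), without overlap above the stage before. The log2 fold change at E11.5-E13.5 was -1.45 ± 0.43 (adjusted p = 0.0132, and 0.0591 without E8.5 replicates 1 and 3). That at E17.5-PND0 was -2.26 ± 0.46 (adjusted p = 0.000228), and the rise at PND1-PND3 was 1.56 ± 0.45 (adjusted p = 0.0111, and 0.0760 when libraries were scaled by their size alone). Each step was recomputed under 19 alternative settings. The fall at E11.5-E13.5 missed the threshold in 2 of them (highest adjusted p = 0.242). The fall at E17.5-PND0 missed it in 1 (0.207) and the rise at PND1-PND3 in 3 (highest 0.250). Lin28a ran from 31.4 to 53.01 CPM at PND4-PND6 and from 15.2 to 66.4 at PND7-PND14.

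Lin28b (ENSMUSG00000063804.8, chr10:45376620-45486395, minus strand), its paralog, passed in no step before PND30. Its pools ran from 2.57 to 45.7 CPM at E8.5-E10.5 (median 24.9), the lowest being E8.5 replicate 1, and from 13.3 to 34.5 in the 18 pools from E11.5 to PND0. After birth they lay at 20.5 to 29.2 CPM at PND1-PND3, at 22.8 to 33.8 at PND4-PND6 and at 27.9 to 57.7 at PND7-PND14 (median 41.6), with both PND10 pools on top. Between E11.5 and PND3, where Lin28a varied from 6.70 to 83.2 CPM, Lin28b stayed between 13.3 and 34.5.

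Taf4b (ENSMUSG00000054321.7) rose at E11.5-E13.5 and had its highest CPM at E17.5-PND0. The pools ran from 2.88 to 38.996 CPM at E8.5-E10.5 (median 31.3), from 35.2 to 66.6 at E11.5-E13.5 (median 56.9), from 74.6 to 110.5 at E14.5-E16.5 (median 92.7) and from 90.9 to 141.6 at E17.5-PND0 (median 121.5). Only the first of these steps passed the test (1.07 ± 0.24, adjusted p = 0.00123). For the step to E14.5-E16.5 the log2 fold change was 0.40 ± 0.26 (adjusted p = 0.200), although the pools did not overlap in CPM, and it passed without E8.5 replicates 1 and 3 (0.36, adjusted p = 0.0435). For the step to E17.5-PND0 it was 0.03 ± 0.26 (adjusted p = 0.949). After birth the pools lay at 61.9 to 102.7 CPM at PND1-PND3, at 47.9 to 78.8 at PND4-PND6 and at 51.6 to 88.9 at PND7-PND14.

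Within PND7-PND14 the lowest pool was PND14 replicate 2 for all 7 genes, the pool in which the meiosis markers were highest, and its part in the result was not tested. The last stage, PND30-Adult, holds spermatocytes and spermatids in large number, and there the levels of all 7 were low in 5 of 6 pools. Sall4 stood at 0.105 to 2.22 CPM in those 5, Lin28a at 0.367 to 1.99, Zbtb16 at 0.126 to 2.03, Foxo1 at 0.566 to 3.14 and Hhex at 1.67 to 4.79. Lin28b was at 2.96 to 6.83 CPM and Taf4b at 17.1 to 27.6. Adult replicate 1 was the highest pool for every gene, with 33.6 CPM of Sall4, 21.02 of Zbtb16, 32.3 of Foxo1, 12.3 of Lin28a, 30.3 of Lin28b, 51.7 of Taf4b and 16.6 of Hhex. The same pool held 206 CPM of Stra8 and 603 of Dazl against 4.46 and 71.5 in Adult replicate 2.

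The log2 fold changes from PND7-PND14 to PND30-Adult were -3.90 ± 0.57 for Sall4 (adjusted p = 9.8e-08), -3.88 ± 0.89 for Zbtb16 (adjusted p = 0.000162) and -3.80 ± 0.47 for Lin28a (adjusted p = 2.8e-09). They were -3.09 ± 0.41 for Foxo1, -2.34 ± 0.48 for Hhex, -1.75 ± 0.32 for Lin28b and -0.96 ± 0.24 for Taf4b, the smallest of the 7 (adjusted p = 0.000448). Without Adult replicate 1 all 7 still passed, with -6.23 for Sall4, -5.52 for Zbtb16, -5.09 for Lin28a, -4.44 for Foxo1, -2.82 for Hhex, -2.28 for Lin28b and -1.09 for Taf4b.

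Some PND30 cells carry a label of DNA content from the sort, which separates haploid spermatids (1N) from spermatogonia and secondary spermatocytes (2N) and primary spermatocytes (4N), with 73 to 189 germ cells in each fraction and replicate. Lin28b was higher in 4N cells, at 5.38 CPM in replicate 1 and 7.33 in replicate 2, than in 1N cells, at 0.839 and 2.88. Taf4b was lower in 4N cells (15.01 and 11.8 CPM) than in 1N cells (18.6 and 21.8). In 2N cells Lin28b stood at 1.72 and 4.59 CPM and Taf4b at 26.7 and 18.9. Sall4 gave 0 to 16 UMIs in each of these 6 fractions, which is at or near the limit of 3 UMIs for most of them. With 2 replicates a fraction these values are given without a test.

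Other genes of the same pathways were counted from written lists, with TMM scaling only. Of 24 markers of stem and undifferentiated spermatogonia, 11 rose and 1 fell at PND1-PND3, where 12.4% of all genes rose and 4.59% fell (median log2 fold change 2.08, that of all genes -0.12), and 11 fell and none rose at PND7-PND14, where 3.74% of all genes fell and 8.43% rose (median -1.83, all genes 0.13). Among those that rose was Gfra1, with 72.5 ± 24.7 CPM after 3.86 ± 6.03 (4.53 ± 0.97 in log2 fold change), and Ret, the co-receptor of GFRA1, with 152 ± 64.5 after 16.6 ± 14.9 (3.49 ± 0.91). Etv5, a factor induced by GDNF, fell at PND7-PND14 from 131.3 ± 38.1 to 19.5 ± 11.2 CPM (-2.83 ± 0.45 in log2 fold change). Of 12 differentiation markers, 2 rose at PND1-PND3, Stra8 (116.9 ± 70.7 after 19.2 ± 17.8 CPM) and Ccnd2. That count is near the same 12.4% of all genes and is no result about the list. At PND7-PND14 4 rose, beside the same 8.43% of all genes, among them Prdm9, which sets sites of meiotic recombination (28.9 ± 21.8 after 3.47 ± 1.27 CPM).

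Of 19 tested genes of the LIN28 and let-7 pathway, 6 rose and none fell at PND1-PND3 (median 0.43), beside 12.4% and 4.59% of all genes. They included known let-7 targets, Ccnd1 with 72.4 ± 40.8 CPM after 16.8 ± 13.4 (2.48 ± 0.56), Mycn with 63.7 ± 7.67 after 16.53 ± 14.47 (2.21 ± 0.70), Trim71 with 140.7 ± 19.6 after 73.4 ± 34.3 (1.20 ± 0.44) and Igf2bp1 with 177 ± 34.6 after 96.4 ± 53.2 (1.15 ± 0.32). At E11.5-E13.5 1 rose and 6 fell, beside 7.66% and 10.2% of all genes, among them Hmga2, from 18.1 ± 15.9 to 4.62 ± 1.83 CPM (-1.85 ± 0.51 in log2 fold change). At E17.5-PND0 4 fell and none rose, near the 15.4% and 7.27% of all genes, so that count is no result about the list. Among the 4, Drosha, which cuts the first precursor of miRNAs, stood at 108.7 ± 21.1 CPM after 131.5 ± 23.8. Dis3l2, which degrades uridylated let-7 precursors, stood at 8.80 ± 2.99 after 14.504 ± 7.78.

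Of 16 tested TFIID subunits, 6 rose and none fell at PND1-PND3 (median 0.42), beside 12.4% and 4.59% of all genes, such as Taf9b with 87.6 ± 20.1 CPM after 40.9 ± 15.1 and Taf7 with 333 ± 57.6 after 230 ± 14.1. Taf7 had fallen at E17.5-PND0 from 470.2 ± 113.7 CPM, with a log2 fold change of -1.45 ± 0.17, in a step where Taf4b itself did not pass. Of 15 SALL paralogs and NuRD subunits 3 rose and 1 fell at PND1-PND3, near the 12.4% and 4.59% of all genes, so the count is no result about the list. Hdac1 rose (220 ± 50.2 CPM after 146.6 ± 21.8) and Hdac2 fell (123.97 ± 14.96 after 228 ± 37.7), both being the deacetylases of that complex. None of the 14 genes of FOXO and PI3K signalling passed at PND1-PND3. At PND7-PND14 2 rose and 1 fell, near the 8.43% and 3.74% of all genes, so that count is no result about the list either. Akt1 rose there (46.02 ± 10.7 CPM after 21.5 ± 5.66) and Pik3ca fell (26.4 ± 6.15 after 43.3 ± 6.32). Of 15 partners of ZBTB16 and HHEX 3 rose and 1 fell at PND1-PND3, again near the shares of all genes. There Hdac3, a deacetylase of corepressor complexes, rose (78.8 ± 14.4 CPM after 48.3 ± 11.2) and Tle1 fell (50.6 ± 22.6 after 93.3 ± 21.3).

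Germ cells were then compared with the somatic cells of the same pools, to see which of these transcripts belong to germ cells. At E11.5-E18.5, 16 pools held 1331 BVSC cells and 572 cells sorted as negative, and all 6 genes that could be tested were higher in germ cells, where 61.1% of 15231 genes passed, 34.5% higher and 26.6% lower. Sall4 stood at 83.6 to 320 CPM in germ cells (median 191) and at 0 to 20.9 in somatic cells (median 4.41), with a log2 fold change of 5.21 ± 0.46 (adjusted p = 1.7e-08). Lin28a stood at 6.70 to 83.2 CPM against 0 to 5.73 (4.78 ± 0.61) and Taf4b at 35.2 to 141.6 against 3.07 to 33.2 (2.88 ± 0.25). These 3 did not overlap between the 2 kinds of cell. The groups did overlap for Hhex (medians 16.7 and 1.77 CPM, 3.09 ± 0.62), Lin28b (23.6 and 2.96, 2.92 ± 0.56) and Foxo1 (75.1 and 20.8, 1.75 ± 0.19). Germ cells were the higher in 16 of 16 pools for Foxo1, in 15 for Lin28b and in 14 for Hhex. Zbtb16 fell under the filter on low counts, with medians of 2.25 and 0 CPM, and was higher in germ cells in 11 of 16 pools.

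At PND0-PND14, 13 pools held 1899 germ cells and 460 cells with under 50 CPM of Ddx4, and all 7 genes were higher in germ cells in all 13 pools, where 65% of 14740 genes passed, 37% higher and 28% lower. Zbtb16 ran from 22.7 to 113.4 CPM in germ cells (median 60.5) and from 0.642 to 10.4 in somatic cells (median 3.52), a log2 fold change of 3.90 ± 0.25 (adjusted p = 1.1e-10). The other values were 3.67 ± 0.19 for Sall4, 3.42 ± 0.24 for Lin28a, 3.34 ± 0.21 for Hhex, 3.08 ± 0.36 for Lin28b, 2.65 ± 0.33 for Taf4b and 1.41 ± 0.23 for Foxo1. The fold was smallest for Foxo1, with 9.51 to 41.3 CPM against 45.6 to 89.9. The paper describes postnatal cells as picked by germ cell morphology, so the cells with under 50 CPM of Ddx4 passed that choice too. Its part in these values was not tested. The germ pools were not free of somatic transcripts, since Sox9 of Sertoli cells reached 44.3 CPM in them (87.5 to 444 in the somatic pools) and Dcn of interstitial cells 151 CPM (65.9 to 817), and the part of this in the differences was not tested. All 7 passed also without PND12 replicate 1, and all 6 fetal ones without E17.5 replicate 1.

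The difference between the postnatal and the fetal contrast was tested as an interaction. For 1 of 7 genes it passed, Sall4, by -1.54 ± 0.50 (adjusted p = 0.0442), where 10.2% of 18143 genes passed (4.91% higher and 5.26% lower). This call rests on the settings, for it missed the threshold with RLE factors (-1.46, adjusted p = 0.0528), with library size alone (-1.28, adjusted p = 0.0771), with no filter on low counts (-1.47, adjusted p = 0.0752) and with at least 20 cells a pool (-1.49, adjusted p = 0.0797). Somatic levels of Sall4 were at a median of 4.41 CPM before birth and 8.03 after it.

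**Figure D3:**
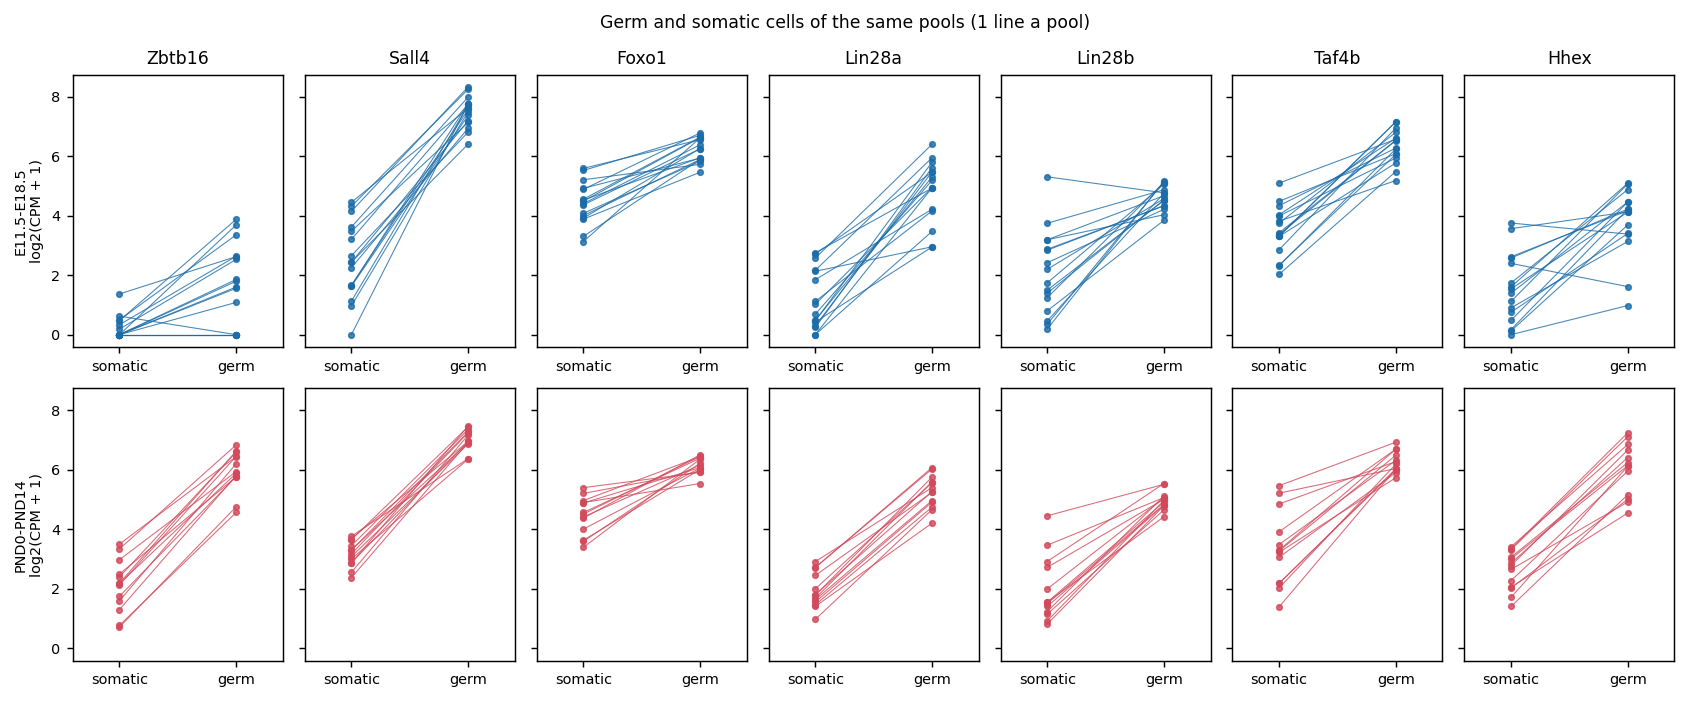
Level of each gene as log2(CPM + 1) (vertical axis) in somatic and in germ cells, with 1 line for each pool. The upper row shows 16 pools of E11.5 to E18.5 and the lower row 13 pools of PND0 to PND14. All lines of the lower row rise from somatic to germ cells, and in the upper row Zbtb16, Lin28b and Hhex have pools that do not.

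To compare cells of the same testes, germ cells of PND3 to PND8 were split by Gfra1 and Stra8 at 50 CPM each, which define the classes and are no result. Of 1839 cells, 212 were Gfra1-high only, 974 Stra8-high only, 476 both and 177 neither. At least 10 cells of both classes were found in the 6 pools of PND3 to PND5 alone, with 199 Gfra1-high and 278 Stra8-high cells. Hhex was higher in Gfra1-high cells, the only 1 of 7 to pass, where 2% of 14631 genes did (1.39% higher and 0.608% lower). At PND3 it stood at 101.3 and 141.4 CPM in Gfra1-high cells of replicates 1 and 2 and at 71.8 and 93.4 in Stra8-high cells, at PND4 at 132.8 and 162 against 92.1 and 160, and at PND5 at 110.8 and 153 against 65.9 and 97.6. It was thus higher in 6 of 6 pools, by little in PND4 replicate 2, and the classes overlapped across pools. The log2 fold change was 0.53 ± 0.10 (adjusted p = 0.0103), and it did not pass with no pool block (0.49, adjusted p = 0.582) or without replicate 1 (0.41, adjusted p = 0.248).

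Zbtb16 stood at 73.8 ± 5.99 CPM (SD, n = 6) in Gfra1-high and 70.2 ± 27.9 in Stra8-high cells and did not pass, the log2 fold change being 0.18 with an interval of -0.11 to 0.48 (95%, normal limits from the standard error). For Sall4 the interval was -0.21 to 0.10, for Foxo1 -0.33 to 0.12, for Lin28a -0.21 to 0.44, for Lin28b -0.41 to 0.29 and for Taf4b -0.18 to 0.24, so 2-fold differences between the classes lie outside all 6. Of the other 22 stem and undifferentiated markers tested, 10 were higher and 2 lower in Gfra1-high cells, beside 1.39% and 0.608% of all genes. T was at 39.03 ± 15.3 against 10.9 ± 9.49 CPM (2.28 ± 0.35) and Lhx1, which GDNF signalling maintains, at 188 ± 38.7 against 76.5 ± 43.7 (1.53 ± 0.31). Of 11 differentiation markers tested, 1 was lower and none higher, beside the same shares of all genes. It was Sohlh1, a factor of early differentiation (110 ± 36.2 against 192 ± 38.9, -0.82 ± 0.13). Of 14 genes of FOXO and PI3K signalling, 1 was lower and none higher, Akt1 (13.7 ± 5.33 against 26.3 ± 11.2, -0.85 ± 0.21). With Kit, the receptor of differentiating spermatogonia, in place of Stra8, Zbtb16 was higher in Gfra1-high cells (0.77, adjusted p = 0.0132), Lin28b lower (-0.81, adjusted p = 0.0491) and Hhex higher (1.11, adjusted p = 0.00431).

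**Figure D4:**
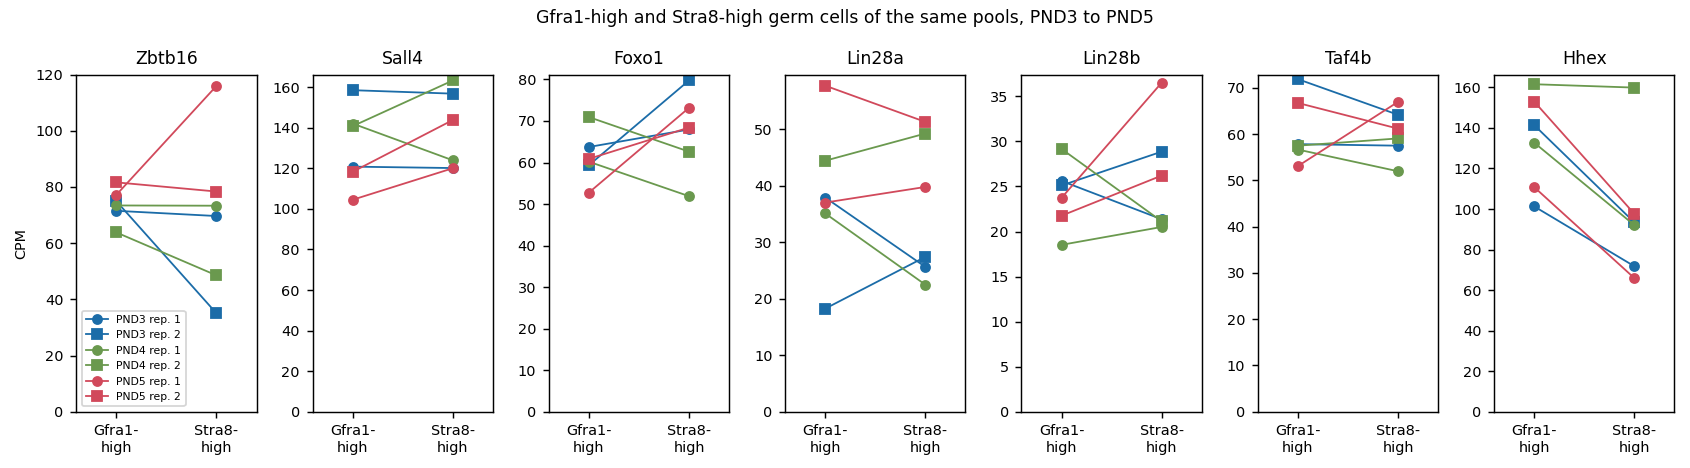
Level of each gene in CPM (vertical axes, each from 0 with its own scale) in Gfra1-high and Stra8-high germ cells of the same pool, 1 line for each of 6 pools of PND3 to PND5. All 6 lines of Hhex fall from Gfra1-high to Stra8-high cells, by least in PND4 replicate 2, while the lines of the other 6 genes go both ways.

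How many cells carried a transcript was read after thinning each cell to 50000 UMIs, which left out 40 germ cells at PND4-PND6. There 88.5% ± 3.62 of germ cells had a UMI of Zbtb16 (SD, n = 6 pools), 97.6% ± 1.06 of Sall4, 92.3% ± 4.61 of Hhex, 85.5% ± 2.88 of Foxo1, 82.004% ± 8.48 of Taf4b, 70.9% ± 11.2 of Lin28a and 54.7% ± 3.69 of Lin28b. In somatic cells of the same stage the shares were 12.7% ± 6.22 (n = 5), 36.1% ± 13.8, 25.7% ± 9.44, 31.9% ± 10.8, 16.8% ± 14.9, 12.1% ± 5.23 and 7.02% ± 4.25 in the same order. Whether these come from transcripts of the somatic cells themselves was not tested. Before thinning the median cell held 274494 UMIs in germ and 87093.5 in somatic cells, and the germ cell shares were then 95.9, 98.9, 97.5, 96.1, 93.7, 90.2 and 76.7%.

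The share of Zbtb16-positive germ cells was 3.75% ± 5.603 at E8.5-E10.5 (n = 8) and 0.733% ± 1.79 at E11.5-E13.5 (n = 6). Somatic cells of E11.5-E13.5 gave 0.379% ± 0.93, so the germ cell share there is not set apart from the somatic one. It was 7.14% ± 3.21 at E14.5-E16.5, 21.05% ± 5.81 at E17.5-PND0 and 67.6% ± 18.03 at PND1-PND3. For Lin28a the share was 95.4% ± 5.37 at E8.5-E10.5, 29.3% ± 10.9 at E17.5-PND0 and 55.98% ± 7.23 at PND1-PND3. At PND30-Adult the means were 6.94% ± 10.4 for Zbtb16, 9.72% ± 15.51 for Sall4 and 6.55% ± 7.80 for Lin28a, but 56.04% ± 10.2 for Taf4b. Adult replicate 1 sets much of the first 3, with 27.8% for Zbtb16, 40.6% for Sall4 and 21.8% for Lin28a, while the other 5 pools ran from 0 to 5.61%, from 0.383 to 9.32% and from 1.34 to 7.69%.

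**Figure D5:**
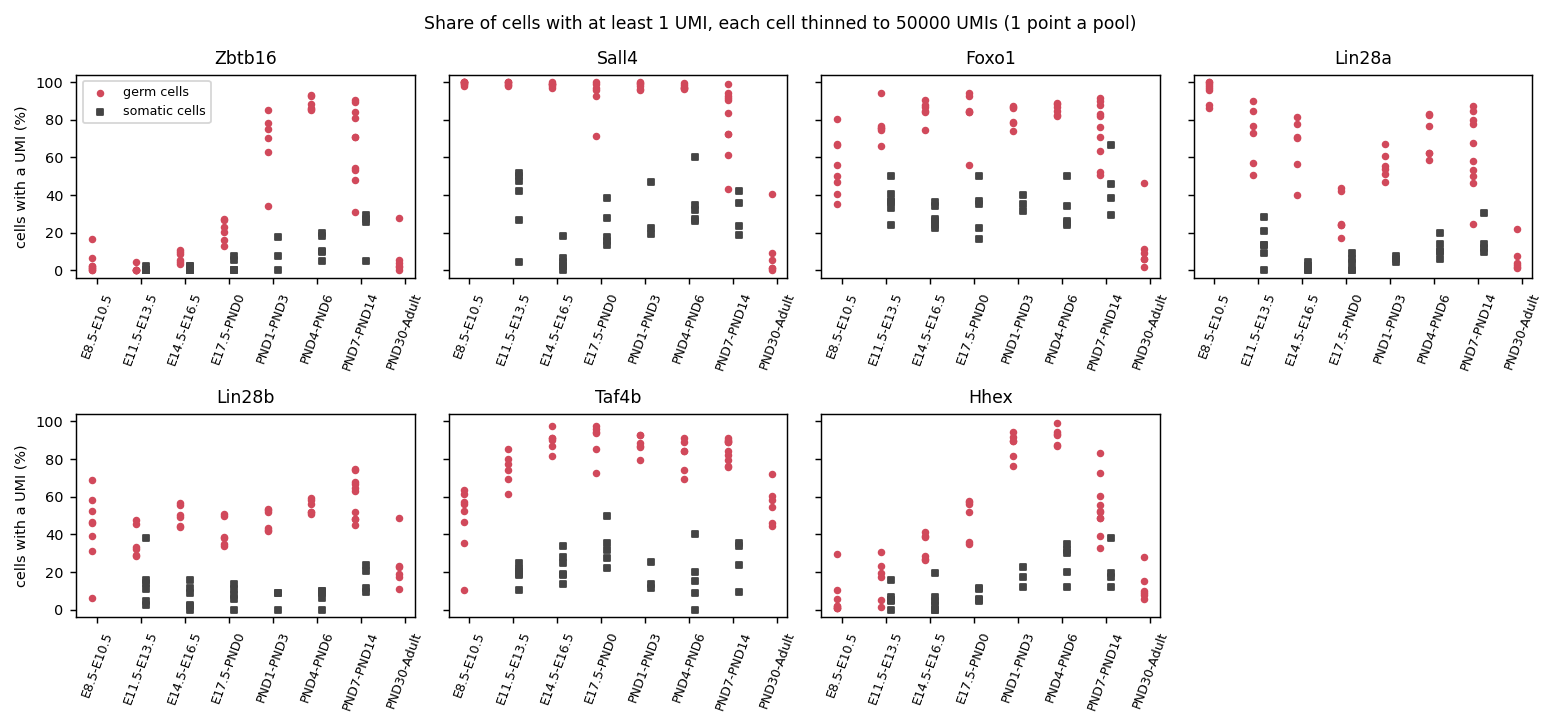
Share of cells with at least 1 UMI in percent (vertical axis) by stage, each cell thinned to 50000 UMIs, with 1 point a pool, red circles for germ cells and dark squares for somatic cells (none plotted for E8.5-E10.5 and PND30-Adult). Zbtb16 goes from 0.733% on average at E11.5-E13.5 to 88.5% at PND4-PND6, and Taf4b stays at 56.04% at PND30-Adult.

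Among the 7 genes, the courses over 26 time-point means of log2(CPM + 1) were most alike for Sall4 and Foxo1 (r = 0.89), Sall4 and Lin28a (r = 0.87) and Zbtb16 and Hhex (r = 0.86), and least for Lin28a and Hhex (r = 0.06). Of 11152 genes with a mean of at least 10 CPM, the closest to Zbtb16 were Lpar3 (r = 0.97), Prps1 and 3110062M04Rik, to Hhex Ret (r = 0.95), Magea5 and Sphk1, and to Lin28b Cbx2 (r = 0.93), Llgl1 and Gm37494. For Sall4 they were Mif (r = 0.99), Gm10053 and Cox7b, for Foxo1 Spin1 (r = 0.99), Dcaf4 and Polr3d, for Lin28a Slc20a2 (r = 0.97), Ttll12 and Zfp871, and for Taf4b Zfand5 (r = 0.96), Rundc3b and Zcwpw1. These are descriptions over points that share pools, depth and the large change at PND30, and the order of the closest genes changed with the measure used.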

How the data were processed

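Single-cell STRT-seq libraries of mouse germline cells were demultiplexed, aligned to mm10 with STAR and counted by UMI with UMI-tools and featureCounts by the authors, who deposited 1 table of raw UMI counts per gene and cell. Genotype, time-point, replicate and sort of each cell were read from the authors' deposited table of cells, since the labels of the 147 libraries give no group. Wild-type cells with over 2000 genes and 10000 to 1000000 UMIs were kept, and counts were summed over the cells of a time-point and replicate with at least 10 cells. CPM used the summed total. Tests were edgeR 4.0.16 quasi-likelihood (R 4.3.3, limma 3.58.1) with TMM factors, filterByExpr and Benjamini-Hochberg adjustment over all genes tested, with 0.05 as the threshold, and were tried on simulated counts. Germ against somatic cells and Gfra1-high against Stra8-high cells had the pool as a block. A standard error is the absolute log2 fold change divided by the root of F. DESeq2 1.42.0, other scalings and filters were alternatives. Replicates are the authors' biological replicates, and p-values measure the spread between these pools. In the stage steps a stage joins pools of several time-points, so that spread also holds change within a stage. The members and lists were chosen with earlier results of these data known. Named were all members, for each list at most 4 called genes with the largest change and a mean of at least 10 CPM, and for each member the 3 genes with the highest r. A gene that this rule names is not reported here. Floors of 3 UMIs cover counting error only.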

Additional observations from a re-analysis of the deposited data

Results flagged for a closer look

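Within stages, 11 of 56 groups of pools held a value far from the others. About 2.8 would by chance if the groups were independent. They are not, since the 7 genes share the pools of a stage, so the 2 counts cannot be set against each other. In 7 of the 11 groups the value was that of Adult replicate 1, with 21.02 CPM of Zbtb16, 33.6 of Sall4, 32.3 of Foxo1, 12.3 of Lin28a, 30.3 of Lin28b, 51.7 of Taf4b and 16.6 of Hhex, each the highest of PND30-Adult. The others were Zbtb16 in E13.5 replicate 1 (2.03 CPM, the only pool of its stage above 0), Hhex in E10.5 replicate 3 (12.495 CPM), and Foxo1 in E12.5 replicate 2 (97.2 CPM) and PND1 replicate 2 (86.5 CPM). Blood markers summed to 377 CPM in E13.5 replicate 1 and to 362 in E10.5 replicate 3, the highest of their stages, and their part in these values was not tested.

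The difference between germ and somatic cells changed between the fetal and the postnatal pools for Sall4 (-1.54, adjusted p = 0.0442), and this call was lost in 6 of 10 alternatives.

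All 7 transcripts were also found at E6.5 and E7.5, outside the comparisons, in pools of all cells past the filter. Germ cells were not picked out there, so these are not germ cell levels. The means over 3 pools of E6.5 and 4 of E7.5 were 334 ± 69.2 and 383 ± 14.2 CPM for Sall4 (SD), 218 ± 42.7 and 248 ± 15.47 for Lin28a, 59.9 ± 23.6 and 45.9 ± 31.04 for Lin28b, 22.8 ± 17.6 and 22.3 ± 6.39 for Foxo1, 14.7 ± 1.94 and 14.6 ± 9.02 for Taf4b, and 0.995 ± 0.020 and 4.50 ± 1.85 for Zbtb16. Hhex stood at 22.3 ± 27.9 and 65.8 ± 88.5 CPM, with pools of E7.5 from 12.3 to 197.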

How the results depend on the processing

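The 31 member results that passed were recomputed under each alternative. Of these recomputed values 445 kept their direction and side of the threshold, 32 missed the threshold and none reversed. Counts of genes called over all genes moved more. With replicate 1, 2 or 3, or with E17.5 replicate 1, Adult replicate 1 or PND12 replicate 1 left out, they ranged from 795 to 5030 at E11.5-E13.5, 3254 to 12109 at E14.5-E16.5, 2 to 6512 at E17.5-PND0, 20 to 5097 at PND1-PND3, 0 to 2562 at PND4-PND6, 0 to 3633 at PND7-PND14 and 10715 to 17738 at PND30-Adult, and from 6277 to 9180 and 7491 to 9590 for germ against somatic cells before and after birth, 17 to 270 for Gfra1-high against Stra8-high cells, and from 0.535 to 10.9% of the genes tested for the interaction. With all pools 4364, 11224, 5536, 4130, 1721, 2965, 16504, 9304, 9575 and 293 genes were called, and 10.2% for the interaction. The counts of 0 are from edgeR without replicate 2, where 1947 genes at PND4-PND6 and 1780 at PND7-PND14 had an unadjusted p under 0.05, and DESeq2 on all pools called 2970 and 3655. The cause of these moves was not tested. Without E8.5 replicates 1 and 3 (chosen after seeing the data, as were the fits without Adult or PND12 replicate 1) 2782 genes passed at E11.5-E13.5. Library size alone gave 3417 and time-point as factor 9722 at E17.5-PND0. Time-point as factor gave 7028 at PND1-PND3 and 3900 at PND4-PND6, where DESeq2 gave 2970. Between Gfra1-high and Stra8-high cells 737 passed with DESeq2, 735 with no filter, 2 with no pool block, 83 with limits of 30 CPM and 1716 with Kit, and for the interaction DESeq2 gave 21.5% and no filter 5.30%.

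Scaling moved the split of calls. Higher against lower, TMM gave 7678 and 3546 at E14.5-E16.5, 1772 and 3764 at E17.5-PND0, 3012 and 1118 at PND1-PND3, 597 and 1124 at PND4-PND6 and 9402 and 7102 at PND30-Adult, while library size alone gave 9569 and 2167, 2173 and 1244, 1532 and 1490, 186 and 2015, and 7551 and 8822. Taken as means over cells, the level of Sall4 at E9.5 was 367 CPM, of Lin28b at PND10 52.6 and of Taf4b at E17.5 109.7. Unthinned shares at PND4-PND6 were 95.9, 98.9, 96.1, 90.2, 76.7, 93.7 and 97.5% for Zbtb16, Sall4, Foxo1, Lin28a, Lin28b, Taf4b and Hhex. Of the 3 genes most like each, Spearman's correlation kept 1 for Zbtb16, Foxo1, Taf4b and Hhex and 0 for Sall4 and Lin28a, and a pseudocount of 5 CPM kept 1 for Zbtb16, Sall4 and Lin28b.

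Replicate numbers did not pair the pools (median r of deviations 0.0049, from -0.31 to 0.58, over 276 pairs of time-points, 15 over 0.1). With the replicate block 3463, 11292, 5586, 4225, 1552, 2712 and 16573 genes passed in the 7 stage steps, and no member's call changed.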
